A study of Mus musculus with 24 samples.

Results

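Muscle contraction raises Ca2+ in the cytosol, and one route by which that signal reaches the genome runs through CREB, a transcription factor that binds cyclic-AMP response elements (CRE), and through the CRTC proteins, its coactivators. CRTC proteins are held in the cytosol when salt-inducible kinases phosphorylate them and enter the nucleus when the phosphatase calcineurin removes the phosphate. Genes for the NR4A orphan nuclear receptors, which act without a known natural ligand and are induced within an hour or so of exercise in muscle, are classical targets of this route. Sik1, itself a CREB target, encodes a kinase that feeds back on the CRTC proteins.

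The genes described here are 9 of the 55487 listed in the deposited table, chosen by name but with earlier results of these data known. They are the NR4A receptors Nr4a1, Nr4a2 and Nr4a3, the kinase gene Sik1, the coactivators Crtc1, Crtc2 and Crtc3, and the factors Creb1 and Crem. Their values come from bulk RNA of C2C12 cells, an established mouse muscle line of wild-type genotype that was fused to myotubes at 5 % O2 and is labelled day 5. The 24 libraries form 4 groups of 6. Myotubes of 5 % CTRL and 1 % CTRL stayed 2 h at 5 % or 1 % O2 without stimulation. Those of 5 % STIM and 1 % STIM had the same 2 h and were then stimulated electrically in repeated short bouts of high-frequency pulses, with a change of medium before and after, and were harvested at once. No source used here states whether the unstimulated dishes had the same changes of medium. Nor is it stated whether they were harvested at 2 h or kept until the stimulation ended. Stimulation, the medium change and any added time at the O2 level therefore cannot be told apart in the STIM and CTRL comparisons. These are cells of 1 line in a dish, with no nerve or vessel, so the contraction is that of pulsed myotubes. The study's methods call the 6 replicates biological, but the labels do not tie them to separate cultures, so p-values measure the spread between these samples, part of which may be technical. In bulk RNA, fewer cells of a type and less RNA per cell cannot be told apart.

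Reads assigned to genes, recovered from the deposited values, summed to 26541858 to 28173745 per library. Values are given as normalized counts, which are gene counts divided by the size factor of the library. All 13 myotube markers were among the 14541 genes tested, while none of 3 neuron markers, none of 3 endothelial markers and 1 of 3 macrophage markers (Cd68) passed the filter, with Snap25 listed at 0 in every library and Ptprc at 0.123 on average. Of 3 fibroblast markers Pdgfra and Dpt were tested, at 188 and 122 normalized counts on average, and Thy1 was not. Sums of muscle markers moved with the groups. The summed level of the myotube markers lay between 558333 and 606498 in 5 % CTRL, 507278 and 581583 in 5 % STIM, 495262 and 530655 in 1 % CTRL, and 480824 and 537448 in 1 % STIM. That of 8 myoblast markers, all tested, lay between 6673 and 7168 in 5 % CTRL, 6165 and 6742 in 5 % STIM, 5868 and 7078 in 1 % CTRL, and 5362 and 5951 in 1 % STIM. This second sum hides opposite changes. From 5 % CTRL to 1 % STIM the mean of Myod1 went from 3524 to 1325, and Ccnb1, Id1 and Id3 were also lower. Means of Pax7 (179 to 225), Myf5 (149 to 306), Top2a (1264 to 2046) and Mki67 (1249.7 to 1254.9) were higher. The part of these shifts in the results below was not tested. Replicate 1 of 1 % CTRL stood apart from its group, with a chi-square per gene of 14.5 to 21.3 against each of the other 5, which lay at 2.54 to 4.78 among themselves. Calls of the genes described here, and some counts of called genes in the gene lists and among all tested genes, are also given without it further on. Group levels, shares, sums and correlations are given only with it.

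The NR4A genes are spread over the genome (GRCm38, GENCODE M21). Nr4a1 lies on chr15:101254269-101274795 (plus strand), Nr4a2 on chr2:57106830-57124003 (minus strand) and Nr4a3 on chr4:48045153-48086447 (plus strand). The 250 bases upstream of the RefSeq start of each held 4 copies of the CRE half-site, searched as TGACG on both strands. The half-site is contained in the full CRE, TGACGTCA, which none of these windows held. Among the 32851 RefSeq promoters of the same length, 17.8 % held at least 1 half-site and 0.137 % (45 promoters) held 4 or more. The cut of 4 is the count found in the NR4A windows themselves. G or C made up 74.4, 80 and 63.6 % of the windows of Nr4a1, Nr4a2 and Nr4a3, and the promoters compared were not matched for this. The Nr4a1 window lies inside the annotated span of the gene. The windows are shown because these genes share the 4 half-sites although their RNAs moved differently across the groups, as described further on. They are printed 5′ to 3′ on the strand of the gene, from RefSeq (GRCm38.p6), with half-sites in capitals. For Nr4a3 only the stretch outside the exons annotated in GENCODE is printed, which leaves out the last 152 bases and 1 of the half-sites.
Nr4a1, chr15:101266596-101266845: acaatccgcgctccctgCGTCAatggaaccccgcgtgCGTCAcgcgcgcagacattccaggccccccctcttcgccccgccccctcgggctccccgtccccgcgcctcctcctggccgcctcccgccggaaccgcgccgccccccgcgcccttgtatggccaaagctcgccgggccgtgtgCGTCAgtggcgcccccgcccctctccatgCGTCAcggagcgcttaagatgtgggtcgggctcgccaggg
Nr4a2, chr2:57124004-57124253: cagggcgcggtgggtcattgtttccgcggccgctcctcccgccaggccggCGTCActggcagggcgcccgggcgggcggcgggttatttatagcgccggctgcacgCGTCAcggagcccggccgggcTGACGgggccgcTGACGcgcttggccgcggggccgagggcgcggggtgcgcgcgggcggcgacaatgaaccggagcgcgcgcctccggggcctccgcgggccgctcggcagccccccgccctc
Nr4a3, chr4:48045055-48045152: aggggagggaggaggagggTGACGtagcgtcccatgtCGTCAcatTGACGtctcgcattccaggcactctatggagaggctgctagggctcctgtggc

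The half-sites began 233, 213, 69 and 40 bases before the start of Nr4a1, 200, 144, 123 and 111 bases before that of Nr4a2, and 231, 213, 205 and 147 bases before that of Nr4a3. The windows of Creb1, Crtc1 and Crtc3 held none. The core letters of the hypoxia response element, ACGTG on both strands, were found once in the windows of Nr4a3 and Crtc3 and in no other of these 6 windows, against 16.6 % of all promoters. TATAAA, also searched on both strands, occurred once, in the window of Nr4a2 and on the strand opposite the gene. On either strand, 12.4 % of promoters held it. The NR4A monomer element AAAGGTCA (1.34 % of promoters) and the CArG box (1.47 %), which serum response factor binds, were in none of them. The RefSeq table used here holds 6 of the 9 genes, and Crtc2, Sik1 and Crem are not among them. Such matches describe letters in a window and not bound sites.

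Tests were run with limma on log2(normalized count + 1) over all 24 libraries and adjusted by Benjamini-Hochberg over the 14541 genes tested. A gene is called here at an adjusted p under 0.05, and all 9 members passed the filter on low values. Fold changes are on this log2 scale, with the standard error (SE) or the 95 % interval. Stimulation under 5 % O2 called 21.4 % of the tested genes (9.44 % higher, 12 % lower), and stimulation under 1 % O2 called 22.3 % (11.5 % higher, 10.8 % lower). The change from 5 % to 1 % O2 called 59.9 % of genes in CTRL (29.4 % higher, 30.5 % lower) and 57.4 % in STIM (29 % higher, 28.4 % lower). The interaction, which is the response to stimulation under 1 % O2 minus that under 5 % O2, called 11.3 % (5.88 % higher, 5.43 % lower). When libraries were rescaled to the same total instead, the share of calls that were higher went from 44.0 to 62.2 % and from 51.4 to 62.3 % under stimulation at 5 % and 1 % O2, and from 49.0 to 62.8 % and 50.4 to 63.2 % for O2 in CTRL and STIM.

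Read against this background, stimulation called 4 of the 9 members under 5 % O2, all higher, and 6 of 9 under 1 % O2, of which 5 were higher and Sik1 was lower. Lower O2 called 7 of 9 in CTRL (3 higher, 4 lower) and 6 of 9 in STIM (3 higher, 3 lower). The interaction called Nr4a2 and Sik1. Without replicate 1 of 1 % CTRL the number of members called was 4, 6, 7, 6 and 2 in these 5 comparisons, as with all 24 libraries, while 23.9, 25.8, 61.6, 59 and 16 % of all tested genes were called. The O2 counts stand beside a background in which most genes were called. Over the 9 members the median log2 fold change was 0.09 and 0.21 under stimulation at 5 % and 1 % O2, −0.04 and 0.03 with lower O2 in CTRL and STIM, and 0.07 in the interaction. Over all tested genes these medians were −0.0076, −0.0031, 0.0015, −0.00083 and 0.0072. The comparisons share groups (5 % CTRL, for example, is the control both of stimulation under 5 % O2 and of lower O2), so their values are set side by side and not as independent results.

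**Figure D1:**
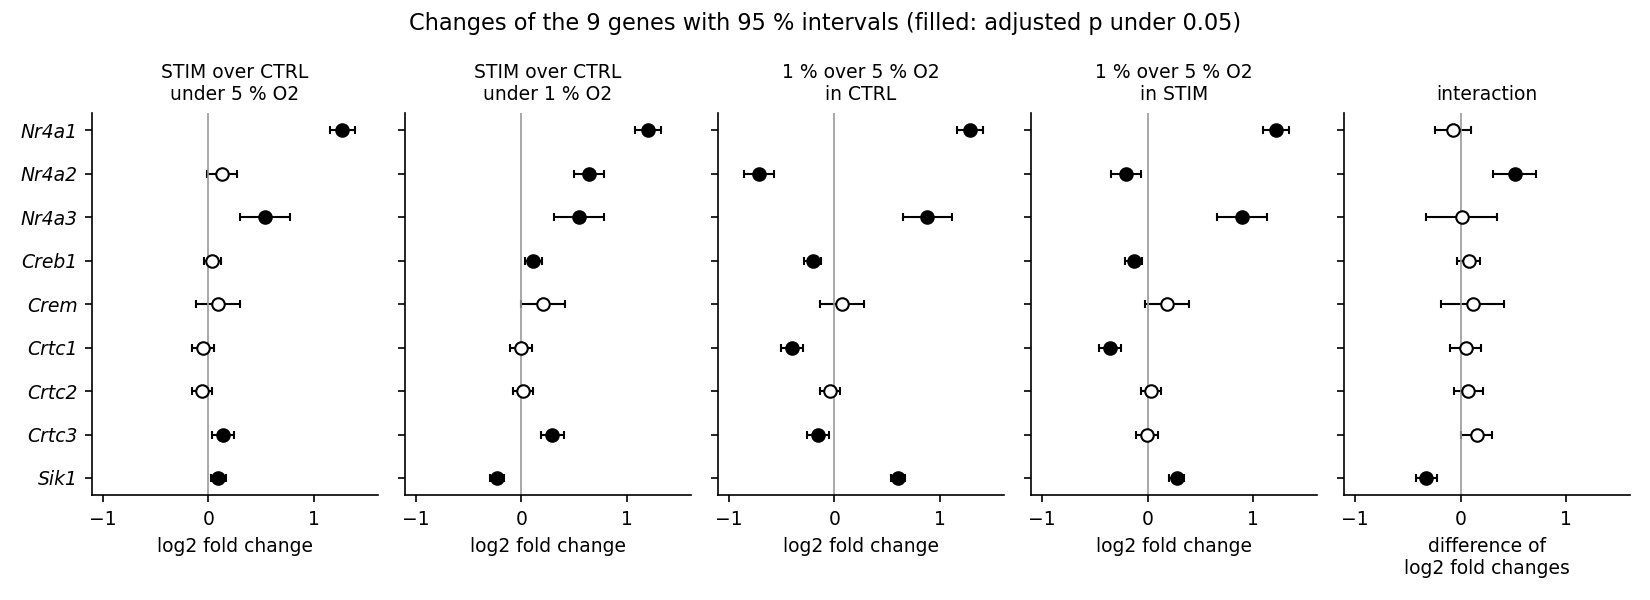
Log2 fold changes of the 9 genes (rows) in the 4 comparisons and the interaction (panels, x axis in log2 units), with 95 % intervals; filled points had an adjusted p under 0.05 in limma. Nr4a1 lies between 1.20 and 1.29 in the 4 comparisons, and Nr4a2 and Sik1 are the filled points of the interaction panel.

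Nr4a1, which encodes the receptor Nur77, had the largest fold change of the members in each of the 4 comparisons. Libraries ran from 282 to 327 normalized counts (median 300.2) in 5 % CTRL, from 679 to 786 (median 729) in 5 % STIM, from 680 to 828 (median 734) in 1 % CTRL and from 1474 to 2052 (median 1676.5) in 1 % STIM. The unstimulated 5 % libraries lay below all others and the stimulated 1 % libraries above all others, while 5 % STIM and 1 % CTRL overlapped. Stimulation raised it by 1.27 on the log2 scale under 5 % O2 (SE 0.06, adjusted p = 1.26e-17 from limma), which is 2.41-fold. Under 1 % O2 it rose by 1.20 (SE 0.06, adjusted p = 4.97e-17 from limma), or 2.29-fold. Both responses were larger than the spread, with 6 of 6 stimulated libraries above the highest control.

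Lower O2 also raised Nr4a1, with or without stimulation. The log2 fold change from 5 % to 1 % O2 was 1.29 in CTRL (SE 0.06, adjusted p = 7.41e-19 from limma) and 1.21 in STIM (SE 0.06, adjusted p = 4.92e-18 from limma). The level after 5 % O2 with stimulation and that after 1 % O2 without it were not distinguished, with a log2 difference of −0.02 (95 % interval −0.14 to 0.10, adjusted p = 0.819). The interaction was −0.07 (adjusted p = 0.651), so that the stimulation fold under 1 % O2 was 0.951 times that under 5 % O2, with an interval from 0.844 to 1.07. Myotubes with both conditions held 5.59-fold the level of 5 % CTRL (interval 5.13 to 6.08).

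Nr4a2, which encodes the receptor Nurr1, followed another order. Its normalized count ran from 325 to 375 (median 340) in 5 % CTRL, from 362 to 410 (median 372) in 5 % STIM, from 188 to 238 (median 210) in 1 % CTRL and from 279 to 370 (median 338) in 1 % STIM. The 1 % CTRL libraries lay below every other library, and the other groups overlapped. Lower O2 reduced it in CTRL by 0.71 on the log2 scale (SE 0.07, adjusted p = 9.53e-11 from limma), to 0.610 of the level at 5 % O2, the opposite direction to Nr4a1 and Nr4a3.

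Stimulation raised Nr4a2 by 0.64 under 1 % O2 (SE 0.07, adjusted p = 7.88e-09 from limma), or 1.56-fold, in 6 of 6 libraries. Under 5 % O2 the difference was 0.13 (95 % interval −0.02 to 0.27, adjusted p = 0.210), which did not pass the test and does not show that the gene did not respond. The difference between the responses did pass, at 0.51 (SE 0.10, adjusted p = 0.000497 from limma), a fold 1.43 times as large under 1 % O2 (interval 1.24 to 1.64). The 1 % CTRL group enters both the O2 difference and this response. Between 1 % STIM and 5 % CTRL the log2 difference was −0.08 (95 % interval −0.22 to 0.07, adjusted p = 0.371), and 2 of the 6 libraries of 1 % STIM lay below the lowest of 5 % CTRL. In STIM the O2 difference was −0.20 (SE 0.07, adjusted p = 0.0136 from limma), and it missed the threshold without replicate 4 of 1 % STIM (−0.16, adjusted p = 0.0557) and with libraries rescaled to the same total (−0.13, adjusted p = 0.103).

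Nr4a3, which encodes the receptor NOR1, was the least abundant of the family. It ranged from 49.4 to 84.9 normalized counts (median 70.3) in 5 % CTRL, from 80.7 to 118 (median 104) in 5 % STIM, from 110 to 158 (median 130) in 1 % CTRL and from 159 to 222 (median 191) in 1 % STIM. The 1 % STIM libraries lay above all others, while neighbouring groups below them overlapped. It rose under stimulation by 0.53 at 5 % O2 (SE 0.12, adjusted p = 0.000784 from limma) and by 0.54 at 1 % O2 (SE 0.12, adjusted p = 0.000546 from limma). With lower O2 it rose by 0.88 in CTRL (SE 0.12, adjusted p = 5.47e-08 from limma) and by 0.89 in STIM (SE 0.12, adjusted p = 5.11e-08 from limma).

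Set against each other, 5 % STIM held less Nr4a3 than 1 % CTRL, with a log2 difference of −0.35 (SE 0.12, adjusted p = 0.0103 from limma). Its interaction was 0.01 (95 % interval −0.32 to 0.34, adjusted p = 0.980), which allows a stimulation fold between 0.799 and 1.27 times as large under 1 % O2. The gene rests on 49 to 228 reads per library, the fewest of the family, and its intervals are the widest of the 9 members.

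**Figure D2:**
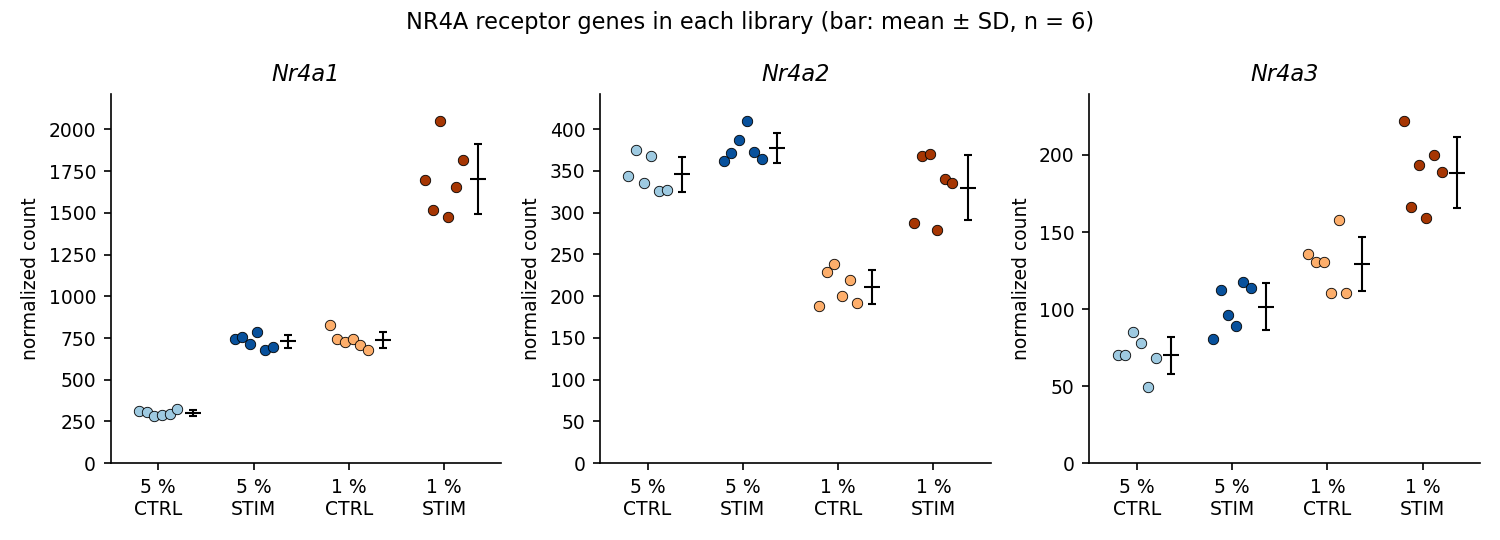
Normalized counts of Nr4a1, Nr4a2 and Nr4a3 (panels) in each of the 24 libraries by group, with the mean ± SD (n = 6) beside the points and y axes that start at 0. Nr4a1 and Nr4a3 are lowest in 5 % CTRL and highest in 1 % STIM (1474 to 2052 and 159 to 222), whereas Nr4a2 is lowest in 1 % CTRL (188 to 238).

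Levels of different genes can be compared per length. Per kb of exon, Nr4a1 had 86.2 ± 4.79 normalized counts (SD, n = 6) and Nr4a2 85.2 ± 5.21 in 5 % CTRL, and Nr4a3 had 11.7 ± 1.99. The first and second thus made up 47.1 ± 2.28 % and 46.5 ± 1.85 % of the summed level of the family, and Nr4a3 6.39 ± 1.06 %. In 1 % STIM the share of Nr4a1 was 81.1 ± 1.496 % and that of Nr4a2 13.6 ± 1.55 %, with ranges over libraries (78.5 to 82.6 % and 12.0 to 16.4 %) apart from those in 5 % CTRL (44.4 to 50.3 % and 43.6 to 48.6 %). The shares of Nr4a1 in 1 % CTRL (74.1 ± 2.27 %) and in 5 % STIM (65.4 ± 1.42 %) lay between, and their ranges did not overlap (71.6 to 77.4 % and 63.4 to 67.4 %).

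The summed level of the family was 183 ± 7.21 normalized counts per kb in 5 % CTRL, 318 ± 13.0 in 5 % STIM, 284 ± 14.9 in 1 % CTRL and 598 ± 67.0 in 1 % STIM. These sums use the length of all annotated exons of a gene. With the length of the longest transcript in its place, Nr4a1 and Nr4a2 had 118 and 97.0 normalized counts per kb in 5 % CTRL.

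**Figure D3:**
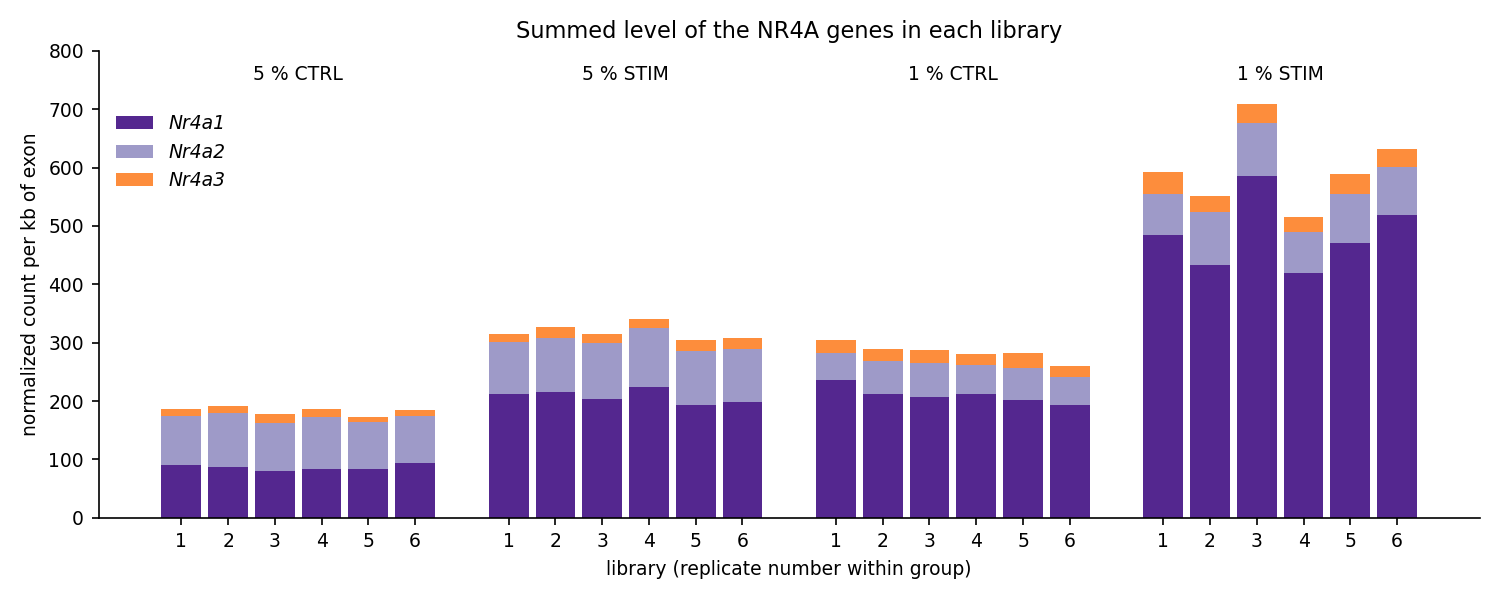
Level of the NR4A genes in each library, in normalized counts per kb of exon, stacked by gene, with the replicate number on the x axis. The summed level averages 183 in 5 % CTRL and 598 in 1 % STIM, and Nr4a1 fills 47.1 % and 81.1 % of it.

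Sik1 (chr17:31844250-31855804, minus strand) was the most abundant member per length in every group, with 499 ± 10.5 normalized counts per kb (SD, n = 6) in 5 % CTRL, above 82.0 % of the tested genes. Its normalized count ran from 2498 to 2625 (median 2550.2) in 5 % CTRL, from 2587 to 2940 (median 2727) in 5 % STIM, from 3517 to 4122 (median 3941) in 1 % CTRL and from 3162 to 3459 (median 3312) in 1 % STIM. All 1 % libraries lay above all 5 % libraries, and within 1 % O2 the stimulated libraries lay below the unstimulated ones. Lower O2 raised it by 0.60 on the log2 scale in CTRL (SE 0.03, adjusted p = 6.49e-17 from limma), or 1.51-fold, and by 0.28 in STIM (SE 0.03, adjusted p = 1.35e-08 from limma).

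The response of Sik1 to stimulation turned with O2. It fell by 0.23 on the log2 scale under 1 % O2 (SE 0.03, adjusted p = 2.29e-06 from limma), with 6 of 6 stimulated libraries below the lowest control. Under 5 % O2 it rose by 0.09 (SE 0.03, adjusted p = 0.0403 from limma), with 5 of 6 stimulated libraries above the highest control. The interaction was −0.32 (SE 0.05, adjusted p = 1.10e-05 from limma). The small rise under 5 % O2 was no longer called without any 1 of replicates 2 to 5 of 5 % CTRL or 1 to 4 of 5 % STIM (log2 fold change 0.07 to 0.10, adjusted p between 0.0569 and 0.126), whereas the fall under 1 % O2 and the interaction were called in all alternatives run.

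Crtc1 (chr8:70382355-70439579, minus strand) encodes a coactivator best known from neurons, and its libraries separated by O2. Its normalized count ran from 1028 to 1199 (median 1085) in 5 % CTRL, from 968 to 1165 (median 1057) in 5 % STIM, from 742 to 899 (median 847) in 1 % CTRL and from 727 to 921 (median 832) in 1 % STIM. The 1 % libraries lay below the 5 % libraries with or without stimulation. Lower O2 reduced it by 0.40 in CTRL (SE 0.05, adjusted p = 3.30e-08 from limma) and by 0.35 in STIM (SE 0.05, adjusted p = 4.29e-07 from limma). The stimulation differences were −0.05 (95 % interval −0.15 to 0.05, adjusted p = 0.540) under 5 % O2 and −0.0032 (interval −0.11 to 0.10, adjusted p = 0.977) under 1 % O2. These intervals reach from 0.898-fold to 1.04-fold and from 0.928-fold to 1.07-fold.

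Crtc3 (chr7:80586627-80688877, minus strand), whose product is the CRTC protein known from fat tissue, rose with stimulation. Its normalized count ran from 461 to 571 (median 504) in 5 % CTRL, from 524 to 600.03 (median 564) in 5 % STIM, from 410 to 509 (median 455) in 1 % CTRL and from 531 to 576 (median 561) in 1 % STIM. The stimulated libraries lay above all unstimulated ones within 1 % O2, and within 5 % O2 the groups overlapped. Under 1 % O2 it rose by 0.29 (SE 0.05, adjusted p = 4.51e-05 from limma), or 1.23-fold. Under 5 % O2 the rise was 0.14 (SE 0.05, adjusted p = 0.0486 from limma), and leaving out any 1 of 17 of the 24 libraries, some of them in groups not compared, took it over the threshold (adjusted p between 0.0509 and 0.138).

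The interaction of Crtc3 was 0.15 (95 % interval 0.0035 to 0.30, adjusted p = 0.191), so a larger response under 1 % O2 was not called. Lower O2 reduced it by 0.16 in CTRL (SE 0.05, adjusted p = 0.00929 from limma), a call that was lost with libraries rescaled to the same total (−0.08, adjusted p = 0.212). In STIM the O2 difference was −0.0046 (95 % interval −0.11 to 0.10, adjusted p = 0.947).

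Crtc2 (chr3:90254163-90264125, plus strand), which encodes the coactivator known from fasting responses in liver, was called in no comparison. Its normalized counts spanned 809 to 1043 over all 24 libraries, with medians of 904, 857, 883 and 895 in 5 % CTRL, 5 % STIM, 1 % CTRL and 1 % STIM, and all groups overlapped. The 4 differences lay between −0.06 and 0.03 on the log2 scale (adjusted p between 0.407 and 0.891), and their 95 % intervals reached from 0.896-fold to 1.09-fold. It was the most abundant CRTC gene per length, with 59.9 ± 1.28 % (SD, n = 6) of the summed CRTC level per kb in 5 % CTRL, against 26.3 ± 1.20 % for Crtc1 and 13.8 ± 1.14 % for Crtc3. In 1 % STIM these shares were 62.6 ± 1.53 %, 21.2 ± 1.41 % and 16.2 ± 0.819 %. The place of Crtc1 above Crtc3 depended on the length used. With the longest transcript in place of all exons, Crtc1 and Crtc3 had 107 and 99.4 normalized counts per kb in 5 % CTRL, and in 1 % STIM they had 81.1 and 109.

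Creb1 (chr1:64532645-64604548, plus strand) encodes CREB itself. There were 1647 to 1851 normalized counts (median 1807) in 5 % CTRL, 1771 to 1914 (median 1826) in 5 % STIM, 1469 to 1621 (median 1560.3) in 1 % CTRL and 1523 to 1871 (median 1667) in 1 % STIM. The 1 % CTRL libraries lay below the 5 % libraries, and 1 % STIM overlapped with all other groups. Lower O2 reduced it by 0.21 in CTRL (SE 0.04, adjusted p = 2.30e-05 from limma) and by 0.13 in STIM (SE 0.04, adjusted p = 0.00410 from limma), the second of which was not called with libraries rescaled to the same total (−0.06, adjusted p = 0.156).

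Stimulation gave a Creb1 difference of 0.04 under 5 % O2 (95 % interval −0.04 to 0.12, adjusted p = 0.558) and a rise of 0.11 under 1 % O2 (SE 0.04, adjusted p = 0.0343 from limma). That rise, of 8.07 %, was lost without replicate 4 or 6 of 1 % CTRL or replicate 3, 4 or 5 of 1 % STIM (adjusted p between 0.0591 and 0.132). It was also lost without the filter on low values (adjusted p = 0.0719) and in a fit of the compared groups alone (adjusted p = 0.0730).

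Crem, on chromosome 18, encodes a CREB relative that yields both activators and, from an inner promoter, the repressor ICER. It was scarce, with 76 to 134 reads per library, and was called neither for stimulation, nor for O2, nor in the interaction. Its normalized count ran from 78.7 to 102 (median 88.5) in 5 % CTRL, from 82.8 to 102 (median 99.5) in 5 % STIM, from 79.7 to 105 (median 94.1) in 1 % CTRL and from 87.7 to 128 (median 111) in 1 % STIM, and all groups overlapped. The largest of the 4 differences was that of stimulation under 1 % O2, 0.21 (95 % interval −0.0043 to 0.41, adjusted p = 0.164), whose interval reaches 1.33-fold. Between 1 % STIM and 5 % CTRL, which differ in both conditions, it was 1.21-fold higher (95 % interval 1.05 to 1.40, adjusted p = 0.0211 from limma), with 3 of 6 libraries above the highest of 5 % CTRL. Crem lost this call without replicate 1 of 5 % CTRL or replicate 1, 4 or 5 of 1 % STIM (adjusted p 0.0545 to 0.0657). Of its exon bases, 472 (8.01 %) overlap with the antisense gene Gm6225, which held 17.3 normalized counts on average, and as no source states that counting was strand-aware, reads of the pair cannot be told apart there. The table gives 1 value per gene, so activator and repressor transcripts were not separated.

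**Figure D4:**
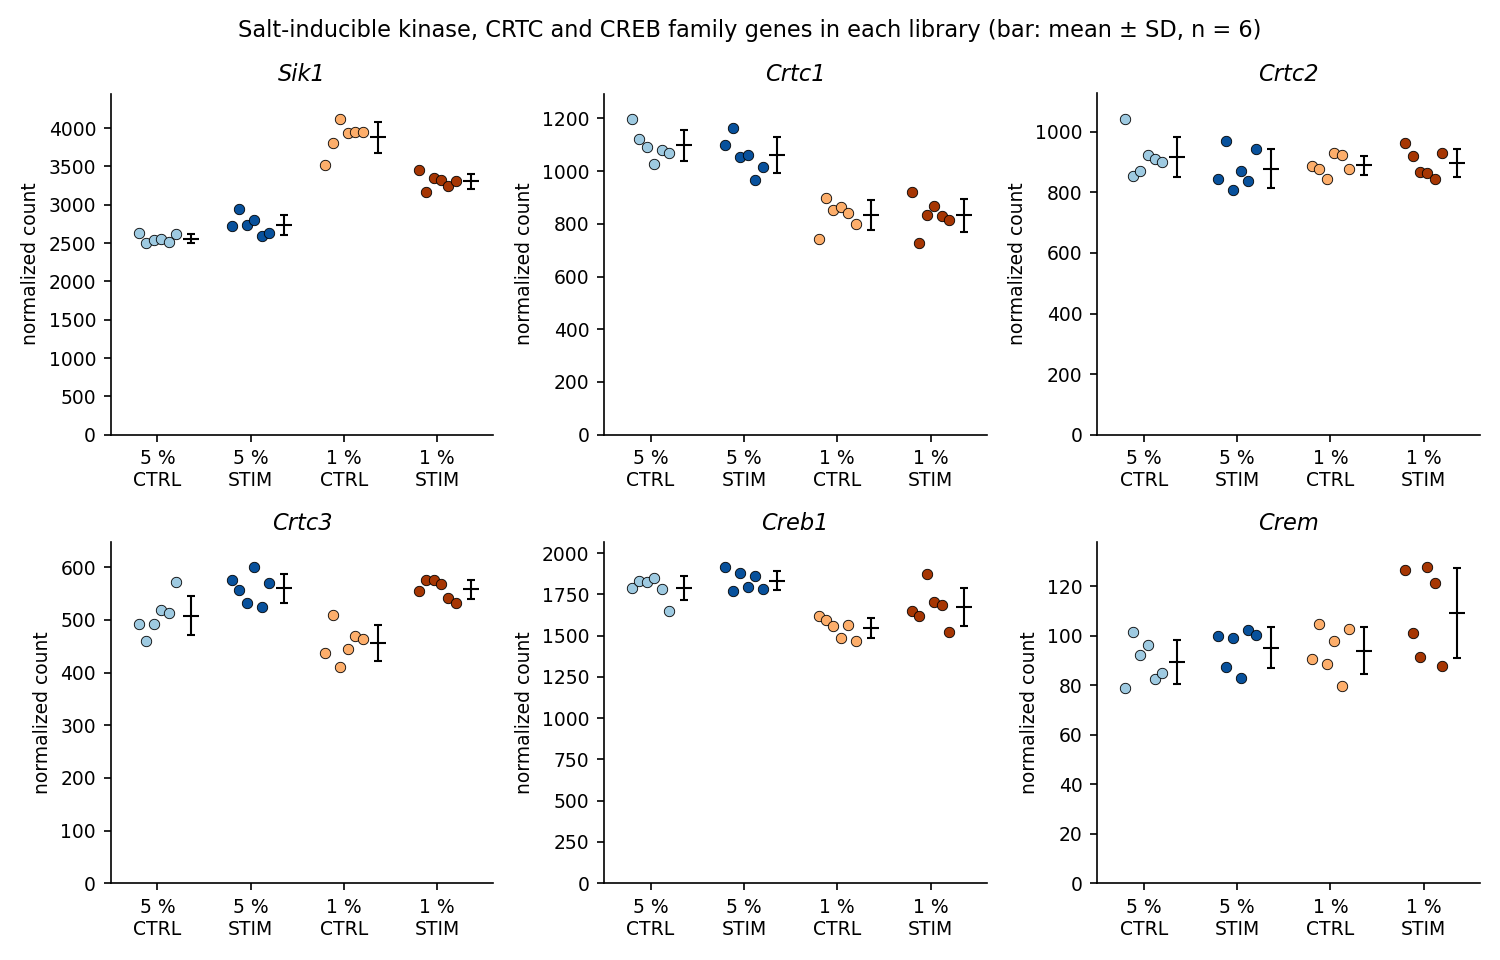
Normalized counts of Sik1, the CRTC genes, Creb1 and Crem (panels) in each of the 24 libraries by group, with the mean ± SD (n = 6) beside the points and y axes that start at 0. Sik1 is highest in 1 % CTRL (3517 to 4122), Crtc1 is lower in both 1 % groups, and the groups of Crtc2 and Crem overlap.

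Without replicate 1 of 1 % CTRL each call of the members was kept. Stimulation under 1 % O2 then gave log2 fold changes of 1.23 for Nr4a1, 0.61 for Nr4a2, 0.56 for Nr4a3, −0.26 for Sik1, 0.28 for Crtc3 and 0.13 for Creb1. Lower O2 in CTRL gave 1.25 for Nr4a1, −0.68 for Nr4a2, 0.86 for Nr4a3, 0.63 for Sik1, −0.36 for Crtc1, −0.15 for Crtc3 and −0.22 for Creb1. The interactions were 0.48 for Nr4a2 and −0.35 for Sik1 (adjusted p = 0.000683 and 2.17e-07 from limma).

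Ordered by mean, the groups of Nr4a1 and Nr4a3 ran 1 % STIM, 1 % CTRL, 5 % STIM and 5 % CTRL, and only 1 % CTRL and 5 % STIM of Nr4a1 were neighbours whose difference did not pass. For Nr4a2 the order was 5 % STIM, 5 % CTRL, 1 % STIM and 1 % CTRL, and only the last step passed the test (adjusted p = 7.88e-09). Sik1 ran 1 % CTRL, 1 % STIM, 5 % STIM and 5 % CTRL, with every step called. Creb1 had the order of Nr4a2, and its middle step of 0.10 on the log2 scale (adjusted p = 0.0349) was not called in 6 of the 24 fits without 1 library (adjusted p between 0.0601 and 0.128) and was 0.0063 in the other direction with rescaled libraries. In Crtc1 the steps within each O2 level did not pass, in Crtc3 the step between 5 % STIM and 1 % STIM did not, and in Crtc2 and Crem no step between neighbours did.

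The members' profiles over the 24 libraries are given as Pearson correlations of log2 values, which describe the 4 group means more than the libraries within them and carry no p. Nr4a1 and Nr4a3 correlated at 0.91, whereas Nr4a2 correlated at −0.08 with Nr4a1 and at −0.24 with Nr4a3. Nr4a2 was nearest among the members to Creb1 (0.78) and most opposed to Sik1 (−0.80). Outside the members, the gene most like Nr4a1 was Lpin1 (0.98), which encodes the phosphatidate phosphatase lipin-1, followed by Ppp1r15a (0.98), whose product guides dephosphorylation of eIF2α, and the clock receptor gene Nr1d1 (0.97). Lpin1 had 257 ± 33.8, 476 ± 23.8, 533 ± 48.3 and 982 ± 111 normalized counts (SD, n = 6) in 5 % CTRL, 5 % STIM, 1 % CTRL and 1 % STIM. Nr4a2 was most like Pdzrn3 (0.94), Lmod2 (0.94), which encodes a leiomodin of the thin filament, and Twnk (0.94), the mitochondrial DNA helicase. For Nr4a3 these were Arid5b (0.93), Zbed3 (0.92) and Atcayos (0.92), a gene on the strand opposite Atcay whose reads may not be separable from its partner's.

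Among the others, Sik1 was most like Slc27a3 (0.98), Samd14 (0.97) and Hk2 (0.97), the gene of hexokinase 2. Crtc1 was nearest to Plec and Arhgef40 (0.95 each), Creb1 to Cdh11 (0.94), Otud4 (0.92) and Arl5b (0.92), and Crtc3 to Sgtb (0.85), Ttyh2 (0.84) and Spsb1 (0.84). The closest genes to Crem (Chmp2b, 0.73) and Crtc2 (Gdpd5, 0.61) were less alike.

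Genes upstream of the members were followed as a list of 29 kinases, regulatory subunits and phosphatase genes that act on CREB or CRTC, of which 28 were tested. Under stimulation 4 rose and 3 fell at 5 % O2, and 3 rose and 3 fell at 1 % O2, 25 % and 21.4 % of the list against the 21.4 % and 22.3 % of all genes given above. The list's median log2 fold changes were −0.0049 and −0.0071, beside −0.0076 and −0.0031 for all tested genes. Changes were small. Camk1, a Ca2+/calmodulin kinase, rose by 0.17 at 5 % O2 (adjusted p = 0.0166 from limma) and Camk2g fell by 0.13 at 5 % and 0.14 at 1 % O2 (adjusted p = 0.000113 and 3.75e-05). At 1 % O2 the calcineurin gene Ppp3ca rose by 0.13 (adjusted p = 0.00198), the protein kinase A inhibitor gene Pkia by 0.14 (adjusted p = 0.00245) and Rps6ka5, which encodes the CREB kinase MSK1, by 0.24 (adjusted p = 0.0383). Ppp3ca was also called at 5 % O2, at 0.09 (adjusted p = 0.0330 from limma), and Pkia and Rps6ka5 were not. At 5 % O2 Rps6ka2 rose by 0.15 (adjusted p = 0.00158) and Prkar2a fell by 0.15 (adjusted p = 0.000367). Lower O2 in CTRL called 21 of 28 (75 %, beside 59.9 % of all tested genes), 7 higher and 14 lower. With libraries rescaled to the same total it called 17 (10 higher, 7 lower). Camkk1, an activator of Ca2+/calmodulin kinases, rose most (1.91-fold, from 142 to 272 normalized counts, adjusted p = 3.30e-13). For the interaction limma, edgeR and DESeq2 called none of the list, with 4, 3 and 4 genes at an unadjusted p under 0.05, and without replicate 1 of 1 % CTRL limma called 1.

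Of 15 further CREB family members and coactivators, all tested, 5 rose and 2 fell under stimulation at 5 % O2, and 6 rose and none fell at 1 % O2. This is 46.7 % and 40 % of the list, beside 21.4 % and 22.3 % of all tested genes. The list's medians were −0.06 and 0.08, beside −0.0076 and −0.0031 for all tested genes. At 5 % O2 the median and the balance of calls thus had opposite signs. Crebrf, a regulator of CREB3 proteins, changed most, from 311 ± 20.5 to 594 ± 28.7 normalized counts (SD, n = 6) at 5 % O2 (log2 fold change 0.93, adjusted p = 3.30e-15 from limma) and from 336 ± 5.64 to 740 ± 73.6 at 1 % O2 (1.13, adjusted p = 1.25e-17). Atf4, the main factor of the integrated stress response, rose by 0.37 and 0.36 (adjusted p = 7.58e-07 and 6.96e-07). Creb3l2 rose by 0.23 and Kat2a, a histone acetyltransferase gene, fell by 0.15 at 5 % O2 (adjusted p = 0.000207 and 0.00353). At 1 % O2 Atf2 and Crebbp, the latter encoding the coactivator CBP, rose by 0.15 each (adjusted p = 0.000525 and 0.0110). Atf2 was also called at 5 % O2, where it rose by 0.10 (adjusted p = 0.0191 from limma), while Crebbp was not called there. Lower O2 in CTRL called 12 of 15 (80 %, beside 59.9 % of all tested genes), 3 higher and 9 lower. With rescaled libraries it called 11 (5 higher, 6 lower). Atf4 was at 0.665 and Crebbp at 0.732 of their levels at 5 % O2 (adjusted p = 8.98e-12 and 1.00e-10). The interaction called 5 (33.3 %, beside 11.3 % of all tested genes). In 4 of them the log2 response to stimulation was more positive under 1 % O2. The levels of these 4 were called lower at 1 % than at 5 % O2, in CTRL and in STIM. Without replicate 1 of 1 % CTRL, 7 of the list were called under stimulation at 1 % O2 and 5 in the interaction. Of all tested genes, 25.8 % and 16 % were then called.

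A list of 28 genes known as CREB targets, of which 27 were tested, showed where the response to stimulation was and was not seen. At 5 % O2, 11 rose and 2 fell, and at 1 % O2, 12 rose and 3 fell. This is 48.1 % and 55.6 % of the list, beside 21.4 % and 22.3 % of all tested genes. The list's medians were 0.15 and 0.11, beside −0.0076 and −0.0031 for all tested genes. Pde4b, which encodes a phosphodiesterase that breaks down cyclic AMP, rose by 1.24 and 1.20 on the log2 scale (adjusted p = 9.06e-19 and 2.17e-18 from limma), from 262 ± 14.7 to 621 ± 18.3 normalized counts (SD, n = 6) and from 403 ± 23.6 to 926 ± 86.6. Gem, a small GTPase gene, rose by 1.25 at 5 % O2 (adjusted p = 3.41e-15) and by 0.31 at 1 % O2 (adjusted p = 0.00192), where its control level was already 369 ± 16.6 beside 149 ± 9.19 at 5 % O2. Atf3 rose by 0.94 at 5 % and 0.84 at 1 % O2 (adjusted p = 3.61e-08 and 2.30e-07), and the antiproliferative gene Btg2 by 0.27 and 0.98 (adjusted p = 0.00145 and 1.27e-14). Rgs2, at only 8.04 to 26.2 normalized counts in the group means, rose by 0.78 and 1.16 (adjusted p = 0.0104 and 0.000159). Areg, the gene of the growth factor amphiregulin, rose by 1.02 at 1 % O2 (adjusted p = 0.000679), from 10.7 ± 4.47 to 22.6 ± 7.81 normalized counts.

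Fos, Fosb, Egr1 and Junb, immediate early genes on that list, did not pass under stimulation. Fos had log2 fold changes of −0.16 and −0.06 (adjusted p = 0.403 and 0.820), Fosb −0.10 and 0.01, Egr1 −0.27 and −0.01 (adjusted p = 0.0775 and 0.964), and Junb 0.51 and −0.57 (adjusted p = 0.0924 and 0.0568). The response of Junb did differ between O2 levels, with an interaction of −1.08 (adjusted p = 0.0214). These 4 genes were picked out after their values were seen. With lower O2 in CTRL 25 of 27 genes were called (92.6 %, beside 59.9 % of all tested genes), 10 higher and 15 lower. Arc and Egr2 fell most, to 0.219 and 0.305 of their levels at 5 % O2 (adjusted p = 2.15e-14 and 4.77e-21), and Arc had 308 ± 37.1 and 66.9 ± 11.01 normalized counts in 5 % CTRL and 1 % CTRL. Arc also fell under stimulation, by 0.61 at 5 % O2 and by 0.94 at 1 % O2 (adjusted p = 0.00178 and 5.63e-06). The interaction called 6 genes of this list (22.2 %, beside 11.3 % of all tested genes). The log2 response to stimulation was more positive under 1 % O2 in 2 of them and less positive in 4. Among the 6 were Btg2 (0.71, adjusted p = 4.35e-07) and Gem (−0.94, adjusted p = 5.69e-08). The level of Gem was nevertheless called higher at 1 % than at 5 % O2, in CTRL and in STIM. Without replicate 1 of 1 % CTRL, 17 of the list were called under stimulation at 1 % O2 (12 higher, 5 lower). The interaction then called 8. Of all tested genes, 25.8 % and 16 % were called in these 2 comparisons.

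**Figure D5:**
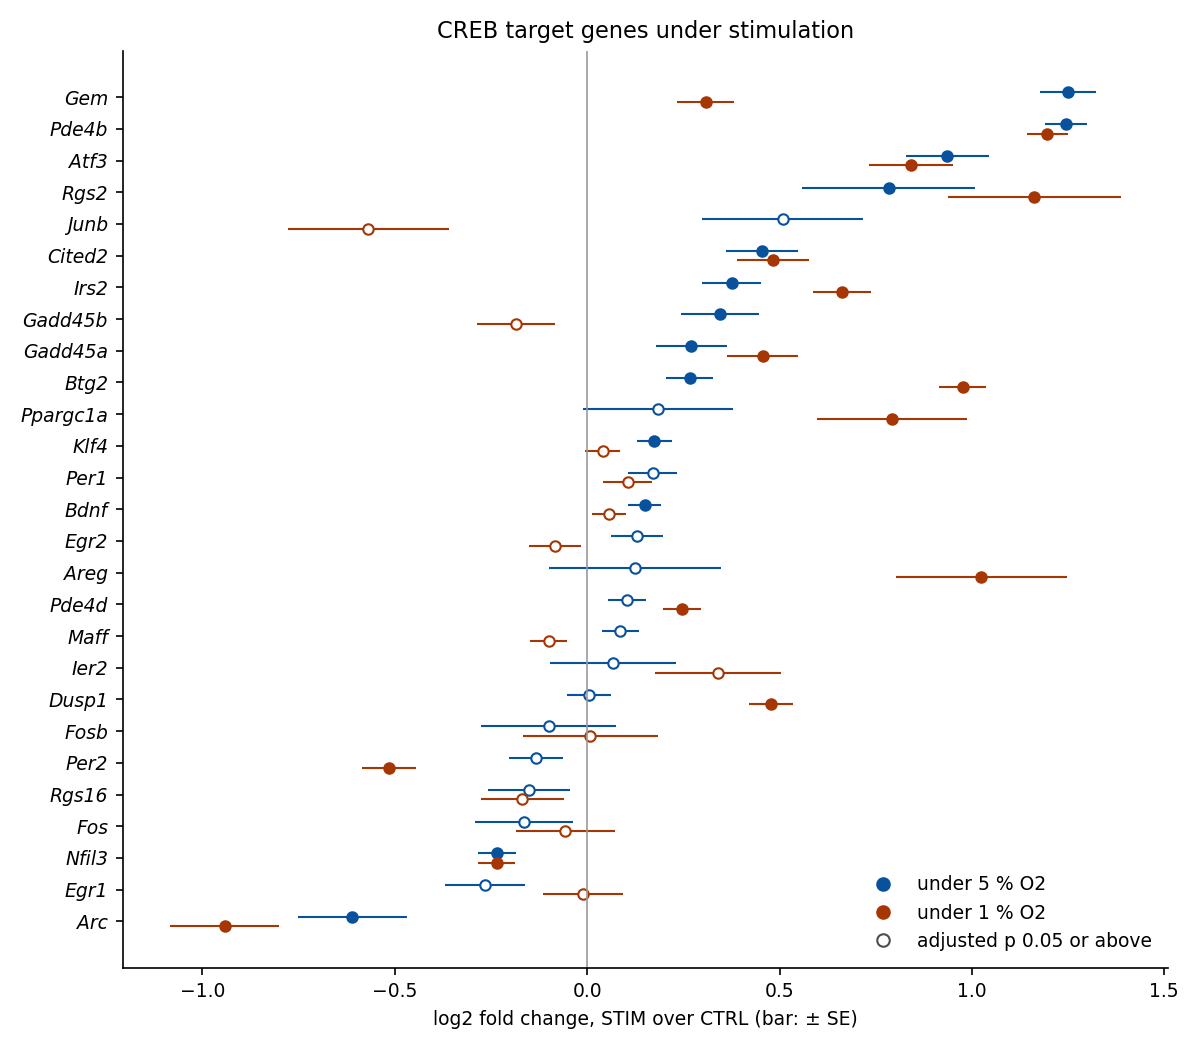
Log2 fold changes under stimulation (x axis, with SE) of the 27 tested CREB target genes, at 5 % O2 (blue) and 1 % O2 (brown); open points had an adjusted p of 0.05 or above in limma. Pde4b lies at 1.24 and 1.20, whereas Gem lies at 1.25 and 0.31 and Fos at −0.16 and −0.06.

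Downstream of the receptors, 14 partner genes and muscle genes reported to respond to NR4A proteins were followed, and 12 were tested. Under stimulation 2 rose and 1 fell at 5 % O2, and 3 rose and 2 fell at 1 % O2. This is 25 % and 41.7 % of the list, beside 21.4 % and 22.3 % of all tested genes. The list's medians were −0.0030 and 0.02, beside −0.0076 and −0.0031 for all tested genes. Lpin1 rose by 0.89 and 0.88 (adjusted p = 2.26e-10 and 2.68e-10 from limma) and the uncoupling protein gene Ucp3 by 0.92 and 1.20 (adjusted p = 9.72e-07 and 2.98e-09), the latter from 61.2 ± 10.9 to 117 ± 22.7 and from 68.7 ± 6.16 to 161 ± 25.5 normalized counts (SD, n = 6). Prkag3, a subunit gene of AMP-activated kinase in muscle, fell by 0.28 and 0.50 (adjusted p = 3.61e-07 and 7.05e-13), and the enolase gene Eno3 fell by 0.12 at 1 % O2 (adjusted p = 0.00112). Lower O2 in CTRL called 9 of 12 (75 %, beside 59.9 % of all tested genes), 4 higher and 5 lower. Lpin1 was at 2.08-fold (adjusted p = 5.83e-13) and Slc2a4, the gene of the glucose transporter GLUT4, at 0.624-fold (adjusted p = 0.00154). The interaction called Prkag3 alone (8.33 % of the list, beside 11.3 % of all tested genes), at −0.22 (adjusted p = 0.00453).

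Other nuclear receptors were followed in the same way. Of 22 listed and 20 tested, 7 rose and 1 fell under stimulation at 5 % O2, and 6 rose and 1 fell at 1 % O2. This is 40 % and 35 % of the list, beside 21.4 % and 22.3 % of all tested genes. The list's medians were 0.07 and 0.0017, beside −0.0076 and −0.0031 for all tested genes. Nr1d1, which encodes the clock repressor REV-ERBα, rose by 0.50 and 0.68 (adjusted p = 2.56e-09 and 1.92e-12 from limma). Rora rose by 0.54 at 5 % O2 (adjusted p = 1.54e-07), and at 1 % O2 Nr1d2 rose by 0.38 and the vitamin D receptor gene Vdr by 0.43 (adjusted p = 2.25e-08 and 9.41e-12). In 5 % CTRL and 5 % STIM, Nr1d2 had 1540 ± 36.3 and 1944 ± 46.2 normalized counts (SD, n = 6), and Vdr 3149 ± 103 and 3214 ± 152. Esrrg, which rose by 0.76 at 5 % O2 (adjusted p = 0.0184), was scarce there, at 8.60 ± 3.88 and 14.3 ± 2.49 normalized counts (SD, n = 6) in 5 % CTRL and 5 % STIM. With lower O2 in CTRL 7 rose and 4 fell, 55 % of the list beside 59.9 % of all tested genes. Esrrg had the largest rise, to 40.2 ± 8.15 normalized counts (adjusted p = 8.77e-10), followed by Ppara, which was near the filter. The interaction called 3 of the 20 (15 %, beside 11.3 % of all tested genes). In 1 of them the log2 response to stimulation was more positive under 1 % O2. Without replicate 1 of 1 % CTRL the interaction called 5, and stimulation at 1 % O2 called 9 (7 higher, 2 lower). Of all tested genes, 16 % and 25.8 % were then called.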

How the data were processed

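The members, the 5 lists of pathway genes and the tests were chosen with earlier results of these data known. The authors sequenced stranded mRNA libraries from a single end, aligned reads to GRCm38 with STAR 2.5.4b and counted them per gene with RSEM 1.3.0 at default settings, which are not stated to use the strand, after FastQC 0.11.7. The values deposited by the authors are a signal, the gene count divided by the size factor of the library from DESeq2. From the step between values, whole reads were recovered for 100 % of values (tolerance 0.001). A second deposited table, with the authors' own comparisons, was not used.

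Tested were the 14541 of 55487 genes that reached 10 normalized counts in 6 or more of the 24 libraries, in 1 limma 3.58.1 fit (R 4.3.3) of the 4 groups on log2(normalized count + 1), with trend and robust, checked on simulated data. Alternatives tried were a stricter threshold (adjusted p under 0.01), a block for the replicate number, fits of only the groups compared, a pseudocount of 10, omitting the filter, scaling every library to 1 common total (written as rescaled), and edgeR 4.0.16, DESeq2 1.42.0 and limma voom on whole reads, plus leaving out each library. No 2 libraries of a group were as close as counting alone allows (chi-square per gene 2.54 to 21.3, the highest for replicate 1 of 1 % CTRL). Symbols, coordinates and exon lengths came from GENCODE M21, which held 55227 of the genes listed. Named were the 9 members, of each list up to 4 called genes with the largest change in each stimulation comparison and 2 in 1 % CTRL against 5 % CTRL, and the 3 genes most correlated with each member among those with a mean of at least 100 in a group. Genes named outside that rule are given as such, and some genes that the rule names are not reported here. Precision is limited by the 6 libraries per group, and for Nr4a3 and Crem by 49 to 228 and 76 to 134 reads per library.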

Additional observations from a re-analysis of the deposited data

Results flagged for a closer look

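The response to stimulation differed between 1 % and 5 % O2 for 2 of the 9 members, by the interaction term in limma. For Nr4a2 the difference of log2 fold changes was 0.51 (SE 0.10, adjusted p = 0.000497), a larger response under 1 % O2. That response started from a lower level, as the log2 difference of 1 % CTRL from 5 % CTRL was −0.71. For Sik1 it was −0.32 (SE 0.05, adjusted p = 1.10e-05), with a fall under 1 % O2 and a small rise under 5 % O2. Over 36 sets of 6 libraries (9 genes in 4 groups), 2 held a library apart from the rest by Dixon's criterion, which chance gives in about 1 of 20 sets. Replicate 6 of 5 % CTRL had 1647 normalized counts of Creb1, with the next library at 1782. Replicate 1 of 5 % CTRL had 1043 normalized counts of Crtc2, with the next at 923. Without that library no call of the gene was gained or lost.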

How the results depend on the processing

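Of 396 values (9 genes in 4 comparisons and the interaction, 45 results under up to 9 settings other than leaving out a library), 374 kept their direction and side of the threshold, 14 lost a call, 1 gained one and 7 changed sign. In these 45 results each call of Nr4a1, Nr4a3 and Crtc1 was kept, as were the interactions of Nr4a2 and Sik1. Outside them, the lower level of Nr4a3 in 5 % STIM than in 1 % CTRL (adjusted p = 0.0103) missed the threshold of 0.01. The cause of the changes was not tested. For stimulation under 5 % O2 the 4 calls became 2 at an adjusted p under 0.01, 2 with no filter (more genes tested) and 2 with the replicate block, where Sik1 (adjusted p = 0.0513) and Crtc3 (0.0568) were lost, and ranged from 2 to 4 over the fits without 1 library, 7 of which gave 2. The block changed no other call. Same-numbered libraries did not deviate together (correlation −0.148 to 0.155, over 0.1 in 2 of 36 pairs). The labels do not say whether they shared a culture or a day, and this check cannot exclude it. Sign changes concerned differences that were not called, except that of Creb1 between 1 % STIM and 5 % CTRL (−0.10, adjusted p = 0.0349). Under rescaling to 1 common total, log2 differences were 0.026 for Nr4a2 and 0.0063 for Creb1 (1 % STIM against 5 % CTRL), −0.028 for Crem (5 % STIM against 1 % CTRL), 0.018 for Crtc1 (1 % STIM against 1 % CTRL), 0.040 and 0.074 for Crtc2 (1 % CTRL and 1 % STIM against 5 % CTRL) and 0.066 for Crtc3 (1 % STIM against 5 % STIM). With edgeR and voom they were −0.0041 and −0.0079 for the interaction of Nr4a3, −0.0086 and −0.0061 for Crem (5 % STIM against 1 % CTRL) and 0.011 and 0.013 for Crtc3 (1 % STIM against 5 % STIM). Without 1 library, ranges that crossed 0 were −0.041 to 0.016 for Nr4a1 and −0.025 to 0.060 for Crem (5 % STIM against 1 % CTRL), −0.052 to 0.11 for the interaction of Nr4a3, −0.036 to 0.035 for Crtc1 and −0.0069 to 0.031 for Crtc2 (1 % STIM against 1 % CTRL), −0.048 to 0.011 and −0.049 to 0.0031 for Crtc2 (1 % STIM against 5 % CTRL and 5 % STIM against 1 % CTRL), and −0.023 to 0.016 for Crtc3 (1 % STIM against 5 % STIM). Crem was called higher in 1 % STIM than in 5 % STIM with rescaled libraries (0.25, adjusted p = 0.0331) and without replicate 6 of 1 % STIM (0.24, adjusted p = 0.0451).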
